A study of Mus musculus with 12 samples.

Results

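The mitosis and spindle genes are 46 genes that act between late G2 phase and cell separation, chosen by symbol: the kinases and cyclins of mitotic entry, the chromosomal passenger complex, the spindle assembly checkpoint, the kinetochore, mitotic kinesins, spindle and cytokinesis proteins, partners of the anaphase-promoting complex, and chromosome structure proteins. All probes annotated with one of these symbols were taken, 58 probes of the 25697 on the array, and they covered 39 of the 46 genes, among 16593 genes on the array. For 35 of the 39 a probe was above background on at least 3 of the 12 arrays and was tested. Ccnb2, Bub1, Cenpe and Nuf2 were above background on 0 of 12 arrays and were not tested. No probe was annotated Ccnb1, Aurkb, Cenpf, Kif20b, Racgap1, Mki67 or Smc4, and these 7 genes were not analysed here.

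The study asked what the leukaemia fusion protein RUNX1-ETO and the cytokine GM-CSF each change in mouse haematopoietic stem and progenitor cells (HSPCs). Marrow cells without lineage markers, from C57Bl/6J mice, were infected for 24 h with a MigR1 retrovirus, and cells that were GFP+, Lineage- and c-Kit+ were sorted for RNA. The 4 groups, with 3 arrays each, were RE+GM (MigR1 carrying HA-tagged RUNX1-ETO, then 10 ng/mL GM-CSF for 24 h), RE (the same virus without GM-CSF), Mig+GM (MigR1 alone, then the same GM-CSF) and Mig (MigR1 alone, without GM-CSF). RE and RE+GM cells had 48 h of RUNX1-ETO expression, and sample titles call the fusion AE where descriptions call it RE. All groups were cultured with IL-3, SCF, FLT3L and serum, so every comparison was made in cells already given growth factors, and the fusion came from a retrovirus rather than from the Runx1 locus. Nothing in the labels tells whether the replicates are different mice or cultures, so the p-values cover the spread among these arrays alone, part of which may be technical, and 3 arrays a group limit the precision.

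Progression into mitosis is driven by the kinase Cdk1 with its cyclins, together with the Polo and Aurora kinases. Kinetochores built on centromeric chromatin attach chromosomes to a spindle shaped by kinesins, and the spindle assembly checkpoint holds back the anaphase-promoting complex until all chromosomes are attached. The transcripts of many of these genes are low in early cell cycle phases and peak in G2 and mitosis, through promoters that hold a cell cycle genes homology region (CHR) and CCAAT boxes, which are bound by the DREAM and MuvB complexes and by NF-Y. Their summed level in a cell population is therefore widely used as a readout of cycling cells, and bone marrow progenitors given cytokines in culture are a cycling population. In bulk samples such as these, fewer cells in mitosis and less RNA per cell cannot be told apart.

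The 2 elements could be looked for in the RefSeq promoter windows of mouse build GRCm38.p6, from 250 bases before to 50 bases after each gene start. A window was found for 38 of the 46 genes (41 windows, since Bub3, Ect2 and Prc1 have 2 each). The CHR sequence TTTGAA was present on either strand in 28 of 38 genes (73.7%), against 20.2% of the 27025 genes with a window. It began within 50 bases of the gene start in 26 of 38 (68.4%), against 5.72% of all genes. CCAAT was present on either strand in 29 of 38 (76.3%), against 41.1% of all genes, and both were present in 24 of 38, against 8.97%. Only in Cdca8 did a TTTGAA match and a CCAAT match share a base. A match is a run of letters and not a measured binding site.

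The promoters below belong to the 6 genes with a CHR match that changed most between RE and Mig, and they show where the elements lie in these genes. Each runs 5′ to 3′ from 100 bases before to 30 bases after the gene start, with TTTGAA and CCAAT on either strand (TTCAAA and ATTGG on the other strand) in capitals.
Top2a (chr11:99024160-99024289, - strand): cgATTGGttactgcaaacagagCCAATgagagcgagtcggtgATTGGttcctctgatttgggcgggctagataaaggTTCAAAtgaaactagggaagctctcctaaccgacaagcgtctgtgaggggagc
Kif11 (chr19:37376282-37376411, + strand): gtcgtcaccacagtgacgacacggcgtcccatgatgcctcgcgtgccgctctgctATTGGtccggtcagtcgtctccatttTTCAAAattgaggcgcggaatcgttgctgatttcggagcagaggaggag
Spc25 (chr2:69206184-69206313, - strand): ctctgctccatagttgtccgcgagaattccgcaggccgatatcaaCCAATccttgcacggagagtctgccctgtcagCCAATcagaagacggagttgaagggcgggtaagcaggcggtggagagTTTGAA
Cdk1 (chr10:69352883-69353012, - strand): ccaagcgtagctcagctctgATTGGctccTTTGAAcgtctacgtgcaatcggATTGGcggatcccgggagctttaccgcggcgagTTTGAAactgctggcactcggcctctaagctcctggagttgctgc
Cdca8 (chr4:124936888-124937017, - strand): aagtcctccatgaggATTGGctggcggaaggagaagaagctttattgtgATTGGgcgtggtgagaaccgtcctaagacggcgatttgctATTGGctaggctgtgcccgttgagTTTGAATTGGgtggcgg
Cenpa (chr5:30666786-30666915, + strand): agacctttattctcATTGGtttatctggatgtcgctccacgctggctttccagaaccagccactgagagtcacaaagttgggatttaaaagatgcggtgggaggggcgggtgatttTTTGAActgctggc

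In the stretches shown, the first base of the CHR match lay 23 bases before the start of Top2a and 19 before that of Kif11. Top2a has another match, at a distance of -179 from its start, outside the stretch shown. In Cdk1 there were 2 matches, 71 and 15 bases before the start. The match of Spc25, Cdca8 and Cenpa began 25, 14 and 17 bases after the start. Among the tested genes with a window, 20 of the 23 with a CHR match were called lower in RE than in Mig, with a median log2 change of -0.75, and 3 of the 6 without one, with a median of -0.54. No test was made of that difference. Over all units, 20.3% were called lower, and the share among all genes with a CHR match was not computed. Birc5 and Mad2l1, whose changes (-1.28 and -1.22) were among the largest, have neither sequence in their windows.

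**Figure D1:**
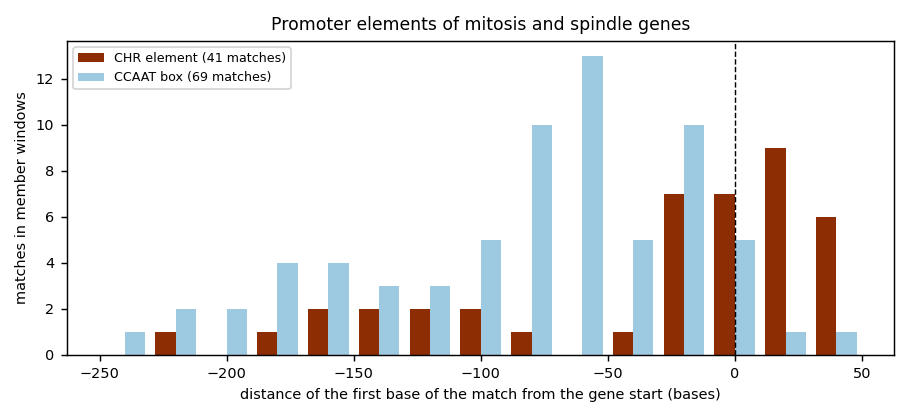
Histogram of the distance, in bases, between the first base of each match and the gene start over the 41 promoter windows of the mitosis and spindle genes, in bins of 20 bases, with 41 CHR matches in dark brown and 69 CCAAT matches in light blue. CHR matches gather around the gene start (dashed line), and CCAAT matches mostly upstream of it. The windows of Bub3, Ect2 and Prc1 overlap, so matches in both windows of a gene are counted in each.

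RUNX1-ETO cells had lower transcript levels of most of the tested mitosis and spindle genes. In RE against Mig, limma called 28 of the 35 tested genes lower and 0 higher at an adjusted p under 0.05, where 20.3% of all 12034 units tested (genes, and probes with no gene name) were called lower and 17.7% higher (38.0% in either direction). The median log2 change of the 35 genes was -0.72, and that of all units was -0.04. At least 2-fold lower were 9 of the 35 (4.03% of all units): Cdk1, Aurka, Birc5, Cdca8, Mad2l1, Cenpa, Spc25, Kif11 and Top2a. For 31 of 35, every RE array lay below every Mig array, as for 24.9% of all units. The log2 changes ran between -1.28 for Top2a and 0.27 for Cdc25b, with 33 of 35 below 0 (56.0% of all units).

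With GM-CSF in both arms the picture was similar. In RE+GM against Mig+GM, 29 of 35 were called lower and 0 higher (23.5% of all units lower, 18.9% higher), with a median log2 change of -0.88 against -0.05 over all units. At least 2-fold lower were 14 of 35 (6.11% of all units), and 30 of 35 had every RE+GM array below every Mig+GM array (29.8%). The 28 genes called in RE against Mig were all among these 29, and the further one was Cenph. Across the 35 genes, the change without GM-CSF and the change with it, which share no arrays but may share replicate batches, had a Pearson correlation of 0.831 and a Spearman correlation of 0.751, given as a description.

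**Figure D2:**
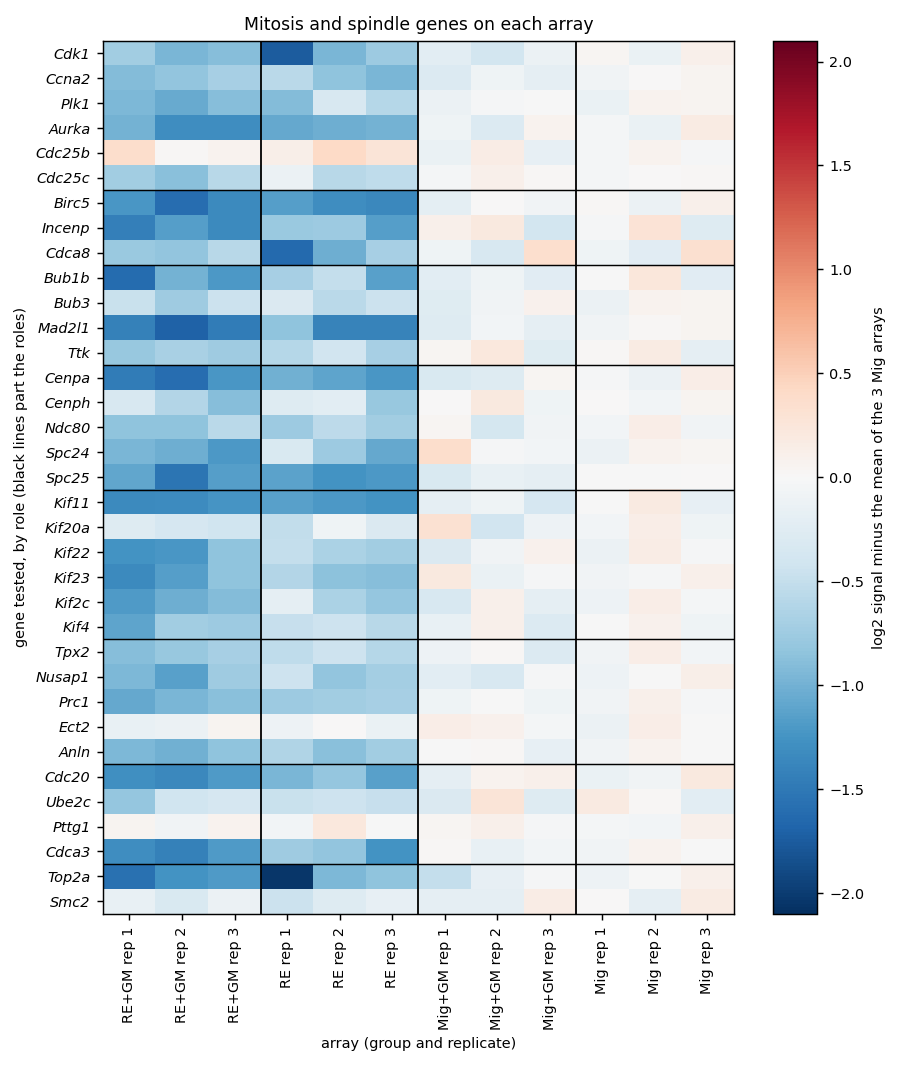
Heat map of the log2 signal of each of the 35 tested genes (rows, grouped by role) on each of the 12 arrays (columns, RE+GM, RE, Mig+GM, Mig), minus the mean of the 3 Mig arrays of that gene. Blue is lower and red is higher than that mean, and the 6 RE+GM and RE columns are blue for most genes.

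Values per array below are log2 normalized signals of replicates 1, 2 and 3, and the errors of changes are standard errors (SE) of the limma model, which are the same in both RUNX1-ETO comparisons. Of the 6 kinases, cyclins and phosphatases of mitotic entry that were tested, 5 were called lower in both comparisons. Aurka, the Aurora kinase of centrosome maturation and spindle assembly, read 9.23, 9.29 and 9.32 on RE arrays, against 10.27, 10.17 and 10.47 on Mig arrays. With GM-CSF it read 9.30, 9.0 and 9.0 on RE+GM arrays, against 10.21, 10.02 and 10.38 on Mig+GM arrays. No RUNX1-ETO array reached a vector array, and the log2 changes were -1.03 (SE 0.12, 2.04-fold lower, limma adjusted p = 4.52e-05) without and -1.10 (adjusted p = 1.75e-05) with GM-CSF.

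Cdk1, the kinase that triggers mitosis, read 8.80, 9.59 and 9.78 on RE arrays, against 10.58, 10.41 and 10.65 on Mig arrays. With GM-CSF the RE+GM arrays gave 9.81, 9.59 and 9.65, against 10.32, 10.15 and 10.42 on Mig+GM arrays. The groups did not overlap in either comparison, and RE replicate 1 was the lowest array. The log2 changes were -1.16 (SE 0.20, adjusted p = 0.000746) and -0.62 (adjusted p = 0.027). The second call ended under 5 alternative settings. These were median scaling (adjusted p = 0.139) and leaving out Mig+GM replicate 1 or 3 or RE+GM replicate 2 or 3 (adjusted p between 0.0631 and 0.0844).

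The other genes called lower in this role were Ccna2, the cyclin of S and G2 phase (log2 change -0.79 in RE against Mig and -0.63 in RE+GM against Mig+GM), Plk1, the Polo kinase (-0.62 and -0.91), and Cdc25c, a phosphatase that activates Cdk1 (-0.42 and -0.76). The Cdc25c call without GM-CSF (adjusted p = 0.0181) ended without RE replicate 2 (0.0756), without RE replicate 3 (0.0649), without Mig replicate 3 (0.0542) and with only the 2 groups in the fit (0.0512). Cdc25b, another phosphatase of the same family, went against the rest in value: 6.65, 6.96 and 6.81 on RE arrays, against 6.50, 6.60 and 6.50 on Mig arrays. All 3 RE arrays lay above the Mig arrays, but the log2 change of 0.27 (SE 0.12) was not called (adjusted p = 0.103). With GM-CSF it read 6.90, 6.56 and 6.60 on RE+GM arrays, against 6.39, 6.69 and 6.37 on Mig+GM arrays, and these groups overlapped (0.20, adjusted p = 0.221).

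All 3 tested genes of the chromosomal passenger complex, which corrects faulty attachments and directs cytokinesis, were called lower in both comparisons. Birc5, the survivin subunit, read 9.90, 9.75 and 9.70 on RE arrays, against 11.09, 10.93 and 11.16 on Mig arrays. With GM-CSF the RE+GM arrays read 9.84, 9.46 and 9.72, against 10.86, 11.07 and 10.99 on Mig+GM arrays. Its log2 changes were -1.28 (SE 0.11, 2.42-fold lower, adjusted p = 5.82e-06) and -1.29 (adjusted p = 3.6e-06), with no overlap of the arrays. All 3 Birc5 probes were called lower when every probe was tested, at -1.28, -1.57 and -1.89 in RE against Mig.

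Cdca8, the borealin subunit, was more uneven: 8.31, 8.91 and 9.24 on RE arrays, against 9.85, 9.69 and 10.27 on Mig arrays. The RE+GM arrays read 9.15, 9.10 and 9.35, against 9.84, 9.59 and 10.29 on Mig+GM arrays. The groups stayed apart, with log2 changes of -1.11 (SE 0.24, adjusted p = 0.00298) and -0.70 (adjusted p = 0.0322). The call with GM-CSF ended under 6 alternatives, with adjusted p up to 0.129 without Mig+GM replicate 3, and also without RE+GM replicate 1 or 2 or Mig+GM replicate 1. Median scaling (adjusted p = 0.116) and the authors' normalized table (0.0716) ended it too. Incenp, the scaffold of the complex, changed by -0.90 and -1.29 on the log2 scale.

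RE replicate 1 was the lowest RE array for Cdk1, Cdca8 and Top2a, and it also had the lowest mean raw signal of the 12 arrays. Without it the log2 changes in RE against Mig were -0.86 for Cdk1, -0.86 for Cdca8 and -0.89 for Top2a, all still called.

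All 4 tested genes of the spindle assembly checkpoint were called lower in both comparisons. Mad2l1, whose protein binds and blocks Cdc20, read 9.85, 9.29 and 9.30 on RE arrays, against 10.63, 10.71 and 10.74 on Mig arrays. With GM-CSF it read 9.28, 9.0 and 9.22 on RE+GM arrays, against 10.42, 10.63 and 10.50 on Mig+GM arrays. This was the largest change with GM-CSF among the 35 genes, -1.35 (2.55-fold lower, adjusted p = 1.45e-05), and without GM-CSF it was -1.22 (SE 0.14, adjusted p = 4.84e-05).

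Bub3, which docks checkpoint proteins at kinetochores, changed least in this role. It read 7.72, 7.47 and 7.58 on RE arrays, against 7.91, 8.10 and 8.09 on Mig arrays, and 7.56, 7.29 and 7.58 on RE+GM arrays, against 7.77, 7.96 and 8.12 on Mig+GM arrays. The arrays still did not overlap, and the log2 changes were -0.44 (SE 0.12, adjusted p = 0.0104) and -0.47 (adjusted p = 0.00604). Bub1b, the BubR1 kinase-like subunit, changed by -0.78 and -1.08, and Ttk, the Mps1 kinase that starts checkpoint signalling, by -0.57 and -0.74.

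Of the 5 centromere and kinetochore genes tested, 4 were called lower in RE against Mig and 5 in RE+GM against Mig+GM. Spc25, a subunit of the Ndc80 complex that grips microtubules, read 8.09, 7.95 and 8.0 on RE arrays, against 9.20, 9.21 and 9.22 on Mig arrays. With GM-CSF it read 8.11, 7.67 and 8.04 on RE+GM arrays, against 8.88, 9.05 and 9.02 on Mig+GM arrays. The log2 changes were -1.20 (SE 0.11, 2.29-fold lower, adjusted p = 8.29e-06) and -1.04 (adjusted p = 1.49e-05), and the arrays were far apart relative to their spread in each group. The centromeric histone Cenpa changed by -1.11 (SE 0.13) and -1.25, and the other Ndc80 complex genes by -0.68 and -0.62 for Ndc80 and -0.72 and -1.15 for Spc24.

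Cenph, a subunit of the constitutive centromere network, read 8.60, 8.64 and 8.08 on RE arrays, against 8.88, 8.81 and 8.92 on Mig arrays. The RE+GM arrays read 8.54, 8.26 and 7.98, against 8.87, 9.07 and 8.78 on Mig+GM arrays. It did not overlap in either comparison, and replicate 3 was its lowest array in both RUNX1-ETO groups. The log2 change of -0.43 (SE 0.17) in RE against Mig was not called (adjusted p = 0.063), but it was with the replicate number as a block (adjusted p = 0.0258), under median scaling (-0.79, adjusted p = 0.00283), and without RE replicate 2, RE+GM replicate 1 or RE+GM replicate 3 (adjusted p between 0.0467 and 0.0487). The change of -0.65 with GM-CSF was called (adjusted p = 0.00716).

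Among mitotic kinesins, 5 of 6 were called lower in both comparisons. Kif11, the motor that pushes spindle poles apart, read 8.43, 8.36 and 8.31 on RE arrays, against 9.56, 9.76 and 9.39 on Mig arrays. The RE+GM arrays read 8.23, 8.25 and 8.32, against 9.37, 9.47 and 9.22 on Mig+GM arrays. Its log2 changes were -1.20 (SE 0.10, 2.3-fold lower, adjusted p = 5.03e-06) and -1.09 (adjusted p = 6.81e-06), the smallest adjusted p of the 35 genes in RE against Mig.

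The other kinesins called were Kif22, the chromokinesin Kid (-0.63 in RE against Mig and -1.01 in RE+GM against Mig+GM), Kif23, the centralspindlin motor of cytokinesis (-0.79 and -1.12), Kif2c, a microtubule depolymerase at centromeres (-0.55 and -0.90), and Kif4, a chromosome arm motor (-0.50 and -0.75). The Kif2c call in RE against Mig (adjusted p = 0.0187) ended without Mig replicate 2 (0.0729), RE replicate 2 (0.0666) or RE replicate 3 (0.0733). Kif20a, a motor of the late spindle midzone, was dim, above background on 1 of 3 RE+GM, 2 of 3 RE, 2 of 3 Mig+GM and 3 of 3 Mig arrays. It read 6.03, 6.45 and 6.24 on RE arrays, against 6.50, 6.69 and 6.45 on Mig arrays, a change of -0.31 (SE 0.16) that was not called (adjusted p = 0.173). On RE+GM arrays it read 6.27, 6.20 and 6.12, which overlapped the 6.87, 6.15 and 6.43 of the Mig+GM arrays (adjusted p = 0.194, and 0.0379 without Mig+GM replicate 2).

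Spindle assembly and cytokinesis genes were called lower in 4 of 5 cases in both comparisons. Prc1, which bundles microtubules of the central spindle, read 10.54, 10.56 and 10.61 on RE arrays, against 11.23, 11.40 and 11.27 on Mig arrays. The RE+GM arrays read 10.22, 10.34 and 10.42, against 11.21, 11.29 and 11.20 on Mig+GM arrays. The arrays of each group lay within a narrow range, and the log2 changes were -0.73 (SE 0.08, 1.66-fold lower, adjusted p = 3.42e-05) and -0.90 (adjusted p = 4.64e-06). Tpx2, an activator of Aurora A on spindle microtubules, changed by -0.53 and -0.68. Ect2, the exchange factor that activates RhoA for the cleavage furrow, read 6.07, 6.18 and 6.03 on RE arrays, against 6.05, 6.31 and 6.16 on Mig arrays. With GM-CSF it read 6.01, 6.05 and 6.23 on RE+GM arrays, against 6.31, 6.26 and 6.12 on Mig+GM arrays. The probe was not above background on any RE array and was above it on 1 of 3 arrays of every other group, so only a bound exists there, and it was not called (adjusted p = 0.572 and 0.314).

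Anln and Nusap1 gave different answers with different probes. Anln, the anillin scaffold of the contractile ring, read 9.31, 9.07 and 9.21 on RE arrays, against 9.87, 10.03 and 9.94 on Mig arrays, with its brightest probe. On RE+GM arrays that probe read 9.01, 8.93 and 9.10, against 9.94, 9.98 and 9.77 on Mig+GM arrays. The log2 changes were -0.75 (SE 0.09, adjusted p = 7.7e-05) and -0.88 (adjusted p = 1.53e-05), with no overlap. Another Anln probe, above background on all 12 arrays, read 6.74, 6.51 and 6.37 on RE arrays, against 6.51, 6.55 and 6.58 on Mig arrays. It read 6.37, 6.44 and 6.33 on RE+GM arrays, against 6.62, 6.56 and 6.56 on Mig+GM arrays. That probe was called in neither comparison when every probe was tested (0.00, adjusted p = 0.979, and -0.20, adjusted p = 0.112), and with the mean of the probes the Anln changes were -0.38 and -0.54.

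Nusap1, a microtubule bundler near chromosomes, read 10.52, 10.14 and 10.24 on RE arrays, against 10.86, 10.95 and 11.09 on Mig arrays. On RE+GM arrays it read 10.03, 9.82 and 10.22, against 10.74, 10.63 and 10.93 on Mig+GM arrays. The log2 changes of this brightest probe were -0.66 (SE 0.13, adjusted p = 0.00192) and -0.75 (adjusted p = 0.000663). A second Nusap1 probe was also called lower (-0.37 and -0.24), and the remaining one, above background on 5 of 12 arrays, was not (-0.17, adjusted p = 0.132, and -0.07, adjusted p = 0.538). With the mean of its probes the changes were -0.40 and -0.35.

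Genes that work with the anaphase-promoting complex were mixed, with 2 of 4 called lower in both comparisons. Cdc20, its activator at anaphase onset, read 10.49, 10.64 and 10.31 on RE arrays, against 11.32, 11.38 and 11.65 on Mig arrays. With GM-CSF it read 10.16, 10.10 and 10.26 on RE+GM arrays, against 11.25, 11.53 and 11.56 on Mig+GM arrays. The log2 changes were -0.97 (SE 0.12, 1.96-fold lower, adjusted p = 8.52e-05) and -1.28 (adjusted p = 7.34e-06), and all 4 Cdc20 probes were called lower. Cdca3, a trigger of Wee1 destruction, changed by -0.94 (SE 0.13) and -1.24. Ube2c, the ubiquitin-conjugating enzyme of the complex, stood at -0.46 (adjusted p = 0.0508) and -0.43 (adjusted p = 0.0654), which missed the threshold and passed it with the replicate block (adjusted p = 0.037 and 0.049). In RE against Mig it also passed under 10 other alternatives, among them median scaling (-0.67, adjusted p = 0.0336), and in RE+GM against Mig+GM without Mig+GM replicate 1 (adjusted p = 0.0431).

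Pttg1, the securin that guards separase, was dim and was not called. It read 6.27, 6.54 and 6.32 on RE arrays, against 6.28, 6.26 and 6.43 on Mig arrays, and 6.38, 6.24 and 6.40 on RE+GM arrays, against 6.36, 6.44 and 6.30 on Mig+GM arrays. All groups overlapped, with changes of 0.05 (SE 0.09, adjusted p = 0.712) and -0.02 (adjusted p = 0.876). The probe was above background on 2 of 3 RE+GM, 2 of 3 RE, 3 of 3 Mig+GM and 2 of 3 Mig arrays, so a lower level could be missed. Across the 35 genes, brighter ones had the larger falls. The Pearson correlation of mean level and change was -0.682 without and -0.728 with GM-CSF, given as a description.

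Of the chromosome structure genes, Top2a, the topoisomerase that untangles sister chromatids, had the largest change of the 35 genes in RE against Mig. It read 8.66, 9.76 and 9.87 on RE arrays, against 10.60, 10.71 and 10.82 on Mig arrays, and 9.14, 9.45 and 9.52 on RE+GM arrays, against 10.20, 10.53 and 10.68 on Mig+GM arrays. The groups did not overlap, and the log2 changes were -1.28 (SE 0.26, 2.42-fold lower, adjusted p = 0.00229) and -1.10 (adjusted p = 0.00469). Smc2, a condensin core subunit, read 5.83, 6.00 and 6.10 on RE arrays, against 6.28, 6.09 and 6.45 on Mig arrays. On RE+GM arrays it read 6.12, 5.95 and 6.14, against 6.09, 6.09 and 6.43 on Mig+GM arrays. It was not above background on any RE or RE+GM array, so only a bound exists there, and it was called in neither comparison (adjusted p = 0.0876 and 0.454), although it was called in RE against Mig with the replicate block (adjusted p = 0.026) and without Mig replicate 2 (0.0487).

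**Figure D3:**
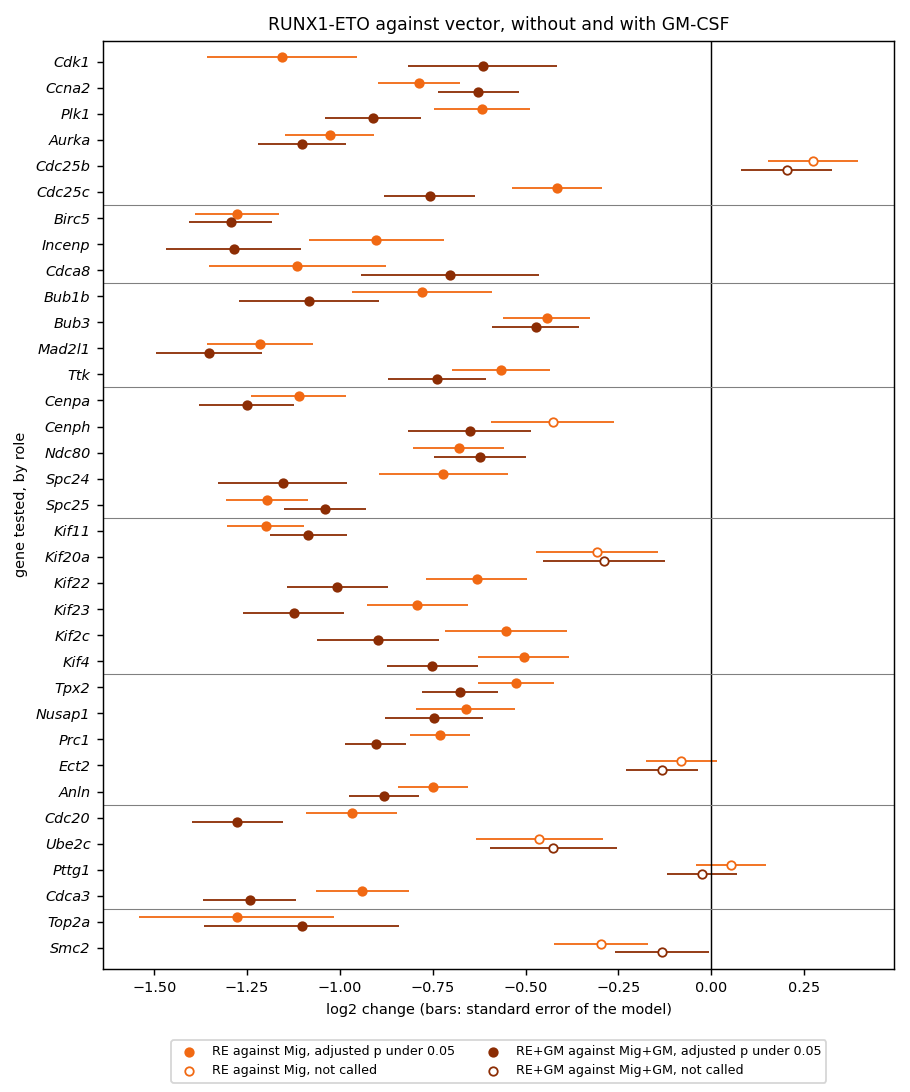
Log2 change of each of the 35 tested genes, by role, in RE against Mig (orange) and RE+GM against Mig+GM (dark brown), with bars of 1 model standard error, filled points for an adjusted p under 0.05 and open points otherwise. Nearly all points lie left of 0, between -1.35 (Mad2l1) and 0.27 (Cdc25b).

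The size of these changes moved with the scaling. When each array was scaled to one median in place of quantile normalization, the median change of the 35 genes in RE against Mig was -1.08, all units together shifted to -0.11, and 9 of the 28 called genes (Plk1, Bub3, Kif22, Kif2c, Kif4, Tpx2, Nusap1, Prc1 and Anln) had changes over 1.5 times as large, as did Cenph, which was then called. Relative to the median of all units the 35 genes stood at -0.68 under quantile normalization, -0.97 under median scaling and -0.59 in the authors' normalized table. Of all units called, the share called higher was 46.6% under quantile normalization and 26.3% under median scaling.

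Within replicate numbers, the median difference of the 35 genes between RE and Mig was -0.62, -0.81 and -0.84 for numbers 1, 2 and 3, and between RE+GM and Mig+GM it was -0.85, -0.95 and -0.78. Every pair of arrays thus gave the same direction.

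For GM-CSF itself, no gene of the programme passed the test. In Mig+GM against Mig, 0 of 35 were called (0.00831% of all units, 1 in all) and 0 had an unadjusted limma p under 0.05 (5.34% of all units). The log2 changes ran between -0.25 for Cdk1 and 0.09 for Spc24, with a median of -0.08 and 28 of 35 below 0 (52.3% of all units). Median scaling moved the median to -0.25, with all units at -0.08. For Ccna2 and Spc25 every Mig+GM array lay below every Mig array (5.15% of all units did). Within replicate numbers the median differences were -0.06, -0.10 and -0.10.

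In RE+GM against RE, 0 of 35 were called (2.28% of all units in either direction, 0.366% lower). At an unadjusted limma p under 0.05 there were 14 of 35, all lower, where 10.6% of all units were lower at that level. These 14 were Kif22, Prc1, Kif2c, Kif4, Cdca3, Plk1, Tpx2, Bub1b, Cdc25c, Cdc20, Cenpa, Kif23, Incenp and Mad2l1, with Kif22 first (-0.47, unadjusted p = 0.00483, adjusted p = 0.104). The log2 changes ran between -0.49 for Bub1b and 0.38 for Cdca8, with a median of -0.18 against -0.03 over all units. Median scaling moved that median to -0.02, with all units at 0.05. Every RE+GM array lay below every RE array for 7 of 35 genes (13.7% of all units). The median differences within replicate numbers were -0.30, -0.29 and -0.05, and 21 to 31 of the 35 genes were lower in each pair.

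Calls in RE+GM against RE changed with the settings. The authors' normalized table gave 4 (Kif22, Prc1, Cdc20 and Cdca3, adjusted p between 0.0181 and 0.035), and leaving out RE replicate 3 gave 2 (Bub1b and Cdca3, adjusted p = 0.0466 and 0.015). Over all units, the authors' table called 126 lower and 273 higher, against 44 lower and 230 higher in the main analysis. No count over all units is given for the fit without RE replicate 3. RE replicate 3 had the lowest median of the 3 RE arrays.

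Whether RUNX1-ETO acted differently with and without GM-CSF was tested as an interaction. It called 0 of 35 genes (0.274% of all units, all higher), and 0 had an unadjusted p under 0.05 (9.31% of all units). The differences of the changes ran between -0.43 for Spc24 and 0.54 for Cdk1. The change was more negative with GM-CSF in 25 of 35 genes (55.3% of all units), with a median difference of -0.13, which turned to 0.19 under median scaling, where all units stood at 0.15.

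**Figure D4:**
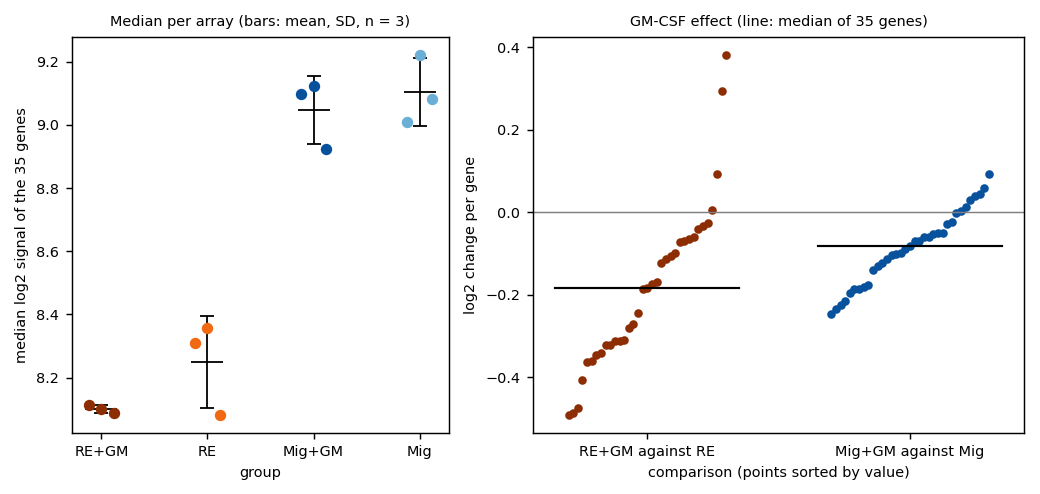
Left, the median log2 signal of the 35 genes on each array, by group, with the mean and SD of 3 arrays: 8.10 ± 0.01 in RE+GM, 8.25 ± 0.15 in RE, 9.05 ± 0.11 in Mig+GM and 9.10 ± 0.11 in Mig. Right, the log2 change of each gene in RE+GM against RE and in Mig+GM against Mig, sorted, with the median as a line at -0.18 and -0.08.

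The rest of the cell cycle machinery was described with lists of other genes, whose counts stand beside the same background of 20.3% lower in RE against Mig and 23.5% lower in RE+GM against Mig+GM. Of 21 other kinetochore and centromere genes tested, 17 were called lower and 2 higher in RE against Mig, and 19 lower and 2 higher in RE+GM against Mig+GM. Cenpk and Cenpi, of the constitutive centromere network, changed by -1.15 and -1.01 in RE against Mig and by -1.18 and -0.99 in RE+GM against Mig+GM. Cenpt, of the same network, went the other way, at 1.81 (SE 0.13, adjusted p = 1.35e-06) and 1.99. The other higher gene, named after its values were seen, was Cenpb, which binds centromeric repeats (0.45 and 0.46).

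Other spindle and midbody genes were called lower in 11 of 20 cases without and 14 of 20 with GM-CSF, with 0 higher in both. With the replicate block, 15 were lower and 1 higher without GM-CSF, and 15 lower and 0 higher with it. That block called 2771 and 3125 of all 12034 units lower in the 2 comparisons. Plk4, the kinase of centriole duplication, changed by -1.23 and -1.18, Ckap2l, a spindle protein, by -1.12 and -0.75, and Kif18a, a kinesin that dampens chromosome movements, by -1.34 and -1.39. Cohesin and further condensin genes were called lower in 10 of 12 and 9 of 12 cases, among them the condensin genes Ncapg2 (-1.03 and -0.95), Ncaph (-0.79 and -0.95) and Ncapd3 (-0.98 and -1.32).

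Of the subunits and inhibitors of the anaphase-promoting complex, 3 of 13 were called lower in RE against Mig and 5 of 13 in RE+GM against Mig+GM. The 3 were the subunits Cdc16 (-0.58 and -0.59) and Cdc23 (-0.55 and -0.81) and its enzyme Ube2s (-0.31 and -0.41). Median scaling gave 7 calls of 13 in RE against Mig. Ube2s was near the threshold, and its call in RE against Mig (adjusted p = 0.0343) ended under 6 alternatives, with adjusted p up to 0.133. Its call in RE+GM against Mig+GM ended under median scaling (adjusted p = 0.0779) and in the authors' normalized table (0.0554).

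Genes of mitotic entry control were called lower in 7 of 11 cases in both comparisons, with 1 higher in each (Ensa, an inhibitor of the phosphatase PP2A-B55, named after its values were seen, 0.46 and 0.35). The mitotic kinases Melk (-0.87 and -0.75) and Pbk (-0.91 and -1.34) and Haspin, the kinase that marks centromeric histone H3 (-0.79 and -1.07), had the smallest p in RE against Mig. The count of calls in either direction, 8 in each comparison, fell to 5 under some settings, namely without Mig replicate 2 or with only the 2 groups in the fit in RE against Mig, and with median scaling or without RE+GM replicate 2 or Mig+GM replicate 3 in RE+GM against Mig+GM.

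Of 20 transcription factor genes that control G2 and M phase genes, 9 were lower and 1 higher in RE against Mig, and 12 lower and 1 higher in RE+GM against Mig+GM. Mybl2, the B-Myb subunit that turns MuvB into an activator, changed by -1.27 (SE 0.11, adjusted p = 5.36e-06) and -1.77 (adjusted p = 3.32e-07), and with the mean of its probes by -0.67 and -0.89. E2f2, an activating E2F, changed by -1.67 in both, and Lin54, the MuvB subunit that contacts the CHR, by -0.84 and -0.64. Foxm1, the forkhead factor of late mitotic genes, was not called in RE against Mig (-0.27, adjusted p = 0.0604) and was in RE+GM against Mig+GM (-0.44, adjusted p = 0.00489), a call that median scaling ended (0.0854). The Foxm1 change in RE against Mig passed the threshold under median scaling (-0.48, adjusted p = 0.016) and without Mig replicate 3, Mig+GM replicate 2 or Mig+GM replicate 3 (adjusted p between 0.0354 and 0.0487). E2f4, the repressive E2F of DREAM, was called lower in RE+GM against Mig+GM (-0.73, adjusted p = 0.00128). In RE against Mig it stood at -0.29 and was not called (adjusted p = 0.134), but median scaling called it (-0.60, adjusted p = 0.00933). The higher gene was E2f3, named after its values were seen (0.39 and 0.66).

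S phase genes stood lower as well, with 35 of 36 called lower in RE against Mig (median -0.92) and 33 of 36 in RE+GM against Mig+GM (median -1.15), and 0 higher in both. The replication factor Rfc5 changed by -1.16 and -1.43, the helicase subunit Mcm4 by -1.15 and -1.33, and the origin recognition subunit Orc6 by -1.21 and -1.14. With the mean of their probes Mcm4 stood at -0.74 and -0.75 and Ncapg2 at -0.65 and -0.63. In RE+GM against RE, Mcm5 (-0.54, adjusted p = 0.0322) and Pold1 (-0.65, adjusted p = 0.0316) were called lower, and they were chosen for naming because they were the only 2 calls. That count ran between 0 and 5 over the alternatives (5 without RE replicate 3, 4 with the replicate block). Over all units, the block called 294 lower in this comparison, against 44 in the main analysis.

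**Figure D5:**
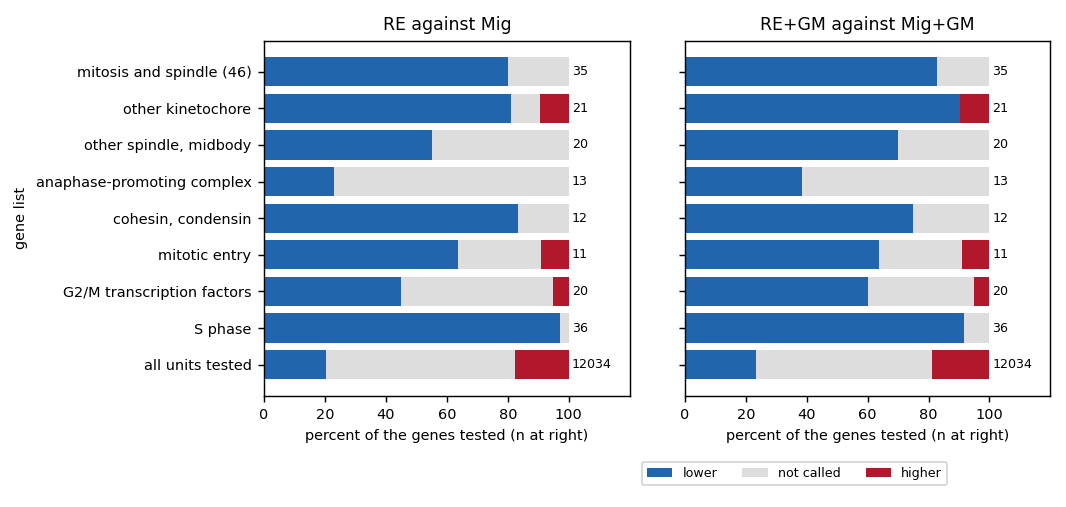
Percent of the tested genes of each list called lower (blue), not called (grey) and called higher (red) at an adjusted p under 0.05 in RE against Mig (left) and RE+GM against Mig+GM (right), with the number tested at the right of each bar. The mitosis and spindle list has 28 and 29 of 35 lower, against 20.3% and 23.5% of all 12034 units.

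Summed levels of cell type markers also differed between groups, and composition and level per cell cannot be told apart here. The summed normalized signal of 7 of 10 erythroid markers tested was 1720 to 2726 on RE arrays, against 10630 to 11860 on Mig arrays, and 1326 to 2164 on RE+GM arrays, against 7150 to 10250 on Mig+GM arrays. That of 7 of 10 monocyte markers was 9176 to 12310 in RE, against 2069 to 6343 in Mig, and 9965 to 14570 in RE+GM, against 2406 to 4859 in Mig+GM. For 8 of 8 mast cell and basophil markers it was 48900 to 61620 in RE, against 28650 to 38320 in Mig, and 47890 to 55940 in RE+GM, against 14590 to 24350 in Mig+GM. Single genes of that list went both ways: of the 8 markers, 3 were called higher and 2 lower in RE against Mig (median log2 change 0.13), and 3 higher and 2 lower in RE+GM against Mig+GM (0.26). Over all units, 17.7% were higher and 20.3% lower in the first comparison, and 18.9% and 23.5% in the second.

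The sums of these 3 lists did not overlap between RUNX1-ETO and vector arrays. Sums of 9 of 10 neutrophil markers were 15420 to 34670 in RE, against 29680 to 75380 in Mig, and 12350 to 24190 in RE+GM, against 32800 to 94630 in Mig+GM. Sums of 6 of 6 megakaryocyte markers were 2268 to 3918 in RE, against 2827 to 5216 in Mig, and 5738 to 12510 in RE+GM, against 1991 to 3234 in Mig+GM. Both lists overlapped without GM-CSF and not with it. The markers tested were 7 erythroid, 9 neutrophil, 7 monocyte and 6 megakaryocyte genes. Of these, 5 erythroid, 1 neutrophil, 1 monocyte and 3 megakaryocyte genes were called lower in RE against Mig, and 1 erythroid and 3 monocyte genes were called higher. Over all units, 20.3% were lower and 17.7% higher. In RE+GM against Mig+GM, 5 erythroid, 3 neutrophil, 1 monocyte and 2 megakaryocyte genes were called lower, and 2 monocyte and 2 megakaryocyte genes higher (23.5% of all units lower, 18.9% higher). Several of these counts are small and near those shares. The 6 megakaryocyte markers went both ways there, with a median log2 change of -0.45 and 4 of 6 below 0, although their sum was higher.

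Lymphoid markers (7 of 10) summed to 1210 to 1602 in RE, against 665 to 779.1 in Mig, and 1634 to 1786 in RE+GM, against 675.7 to 789.5 in Mig+GM. Of these 7, 2 (Cd79b and Il7r, named after their values were seen) were called higher and 0 lower in both comparisons, with medians of 0.02 and 0.03. Over all units, 17.7% were called higher without GM-CSF and 18.9% with it. Stem and progenitor markers (7 of 10) overlapped without GM-CSF, at 3894 to 4226 in RE, against 3275 to 5217 in Mig, and with it, at 3368 to 3801 in RE+GM, against 2234 to 3678 in Mig+GM. Of these 7, 2 were called higher and 0 lower in RE against Mig (median log2 change -0.07). In RE+GM against Mig+GM 3 were called higher and 0 lower (-0.11). No probe was annotated Kit, the sort marker, and Flt3 was under the filter. The part of these marker differences in the lower level of mitosis and spindle genes was not tested.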

How the data were processed

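Per the labels' protocols, the arrays were Illumina Mouse Ref-8 v2.0 BeadChips, 1 for the total RNA of each of 12 sorted samples. The deposited main table holds intensity per probe before normalization, without detection p-values. A second table holds intensity that the authors normalized, and it served as an alternative. For neither table do the sources used here give the software or method. All 12 columns of each table matched a sample by name, and 0 were unused. Mean signal per array was 318 to 597, and 48.9% to 60.9% of probes were above background.

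Signals were corrected with normexp (offset 50), quantile-normalized and converted to log2 values with limma 3.58.1 in R 4.3.3. This offset makes fold changes of dim probes smaller. Without detection p-values, each array's background was taken from its own signals, as the mode of those below their 75th percentile plus the spread below the mode, at p under 0.05. Probes above it on at least 3 arrays were kept, 16266 of 25697. This recipe replaced a first one, based on signals below the 90th percentile, after results had been seen. It was picked among 30 recipes because its number of probes came closest to that of an earlier analysis. Over the 30, between 33 and 35 members were tested, 28 or 29 were lower in RE against Mig and 29 in RE+GM against Mig+GM, and 0 were called in the other 3 contrasts. Probe names came from GEO's platform annotation, where 23978 probes have 1 gene and 1719 none. One unit per gene was tested, its probe with the highest mean, giving 11059 genes and 975 unnamed probes.

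One model with a mean per group was fitted to all 12 arrays with lmFit and eBayes, two-sided, with Benjamini-Hochberg adjustment over 12034 units within each contrast at 0.05, and was tested on simulated data. The contrasts were the RUNX1-ETO effect without and with GM-CSF, the GM-CSF effect in RE and in Mig cells, and the interaction. Groups and replicate numbers came from titles and descriptions. After group means were removed, arrays with the same number correlated by 0.0854 to 0.691 across units (median 0.319) and those with other numbers by -0.469 to 0.257 (median -0.173). In the 4 direct comparisons every same-number pair was over 0.1, and elsewhere such pairs fell to 0.0854 and 0.0908. Mig replicate 2 correlated with RE replicate 1 (0.122) as much as with RE replicate 2 (0.121). Arrays with the same number thus tended to vary together, and the number was used as a block in an alternative model. Results with that block are given for members whose call changed, and list counts are without it unless stated.

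The members and all lists were chosen with earlier results of these data known. Values on every array are given for the member with the smallest and the largest p of each role in RE against Mig, for Cdk1, and for members whose probes disagree. From each other list the 3 called genes with the smallest p are named, and Foxm1, Mybl2 and E2f4. Promoter windows are RefSeq's, build GRCm38.p6. Alternatives were other background corrections, scalings, filters, probe rules and sample sets, the replicate block and leaving out each array.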

Additional observations from a re-analysis of the deposited data

How the results depend on the processing

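Over 23 alternatives, between 26 and 31 members were called lower in RE against Mig and between 27 and 30 in RE+GM against Mig+GM, and 0 were called higher in either. Leaving out each array in turn gave 26 to 30 and 27 to 30. In Mig+GM against Mig and in the interaction 0 members were called under every alternative run. The alternative with only the groups of a contrast gives no value for the interaction. In RE+GM against RE, 0 were called in the main analysis, 4 in the authors' normalized table, and 0 to 2 when each array was left out. The authors' table also called more of all units lower, 126 against 44. The cause was not tested. No called member turned its sign under any alternative.

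Arrays with the same replicate number tended to vary together. With the replicate block 31 members were called lower in RE against Mig (Cenph, Ube2c and Smc2 in addition) and 30 in RE+GM against Mig+GM (Ube2c in addition). The block changed no other call among the members. Over all 12034 units, it called 2771 lower and 2404 higher in RE against Mig, against 2444 and 2129 without it. In RE+GM against Mig+GM it called 3125 lower and 2536 higher, against 2828 and 2271. Counts of other lists moved with it as well. Neutrophil markers called lower became 3 in RE against Mig and 6 in RE+GM against Mig+GM. Monocyte markers called higher became 5 and 3.

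In RE against Mig, 2 of the 28 calls (Cdc25c and Kif2c) ended under at least 1 alternative, and in RE+GM against Mig+GM 2 of 29 did (Cdk1 and Cdca8). Median log2 changes of the members ran between -1.08 and -0.61 in RE against Mig and between -0.93 and -0.75 in RE+GM against Mig+GM. With 3 arrays per group, and 4 of the 35 genes above background on only some arrays, the precision for dim genes is limited.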
